A study of Homo sapiens with 24 samples.

Results

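HCT116 5/4 is a derivative of the human colorectal carcinoma line HCT116 that carries 4 copies of chromosome 5 (tetrasomy), and its RNA was compared here with that of the parental line, labelled as near diploid with a modal number of 45. The genes described are those of the deposited comparison of these lines with a mean of at least 10 normalised counts over its 6 libraries (3 of HCT116 5/4 and 3 of HCT116), which are 13887 of the 15148 genes of that table and lie within a series of 24 libraries. Both lines were grown untreated, as the labels name no treatment, and the extra chromosomes had been introduced by chromosome transfer. Nothing in the labels says that the 3 libraries of a line came from separate cultures, so the p-values measure the spread between these libraries, which may be technical. Because one derived line was compared with its parent, the gain of chromosome 5 and anything else that separates the lines cannot be told apart. As comparison lines served HCT116* 8/3 c7 (HCT116 expressing histone H2B tagged with GFP, with 3 copies of chromosome 8, set against HCT116 with the same histone) and RPE1 5/3 12/3 (retinal pigment epithelial cells with 3 copies of chromosomes 5 and 12, set against RPE1). Both RPE1 groups are labelled RPE1 hTERT and were immortalised with a transgene of human telomerase.

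When a chromosome is gained, the mRNA of most of its genes is known to rise roughly with the number of copies, while the abundance of many proteins, above all subunits of complexes, is buffered. Chromosome 5 carries, among others, the Wnt regulator APC, the mismatch repair gene MSH3, the chaperones HSPA4 and HSPA9, the transcription factor IRF1 and the clustered protocadherins. Changes on other chromosomes, such as higher interferon-stimulated genes and lower ribosomal and replication genes, have been described as a transcriptional response to chromosome gain.

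Values are log2 fold changes of HCT116 5/4 against HCT116 from the authors' deposited table, given with their standard error (SE), and 0 means no difference. A gene was called when its adjusted p was under 0.05 and its log2 fold change was above 0.6 or below -0.6. By this rule 10.8% of the 13887 genes were higher (1500 genes) and 9.83% were lower (1365 genes). These shares are the background for counts of calls in HCT116 5/4 only. A list count near them is not a result about the list. In both comparison lines the paper called a smaller share of mRNAs, so few calls there are not by themselves a depletion. Shares over all genes by direction are not given for these lines, so list counts of calls there are a description. Single libraries were not available as values, so the levels of both lines were derived from the mean over the libraries and the fold change, and are called implied normalised counts. As a check of the cell type, all 9 epithelial markers were present in both lines, with implied counts in HCT116 5/4 from 68.4 for ELF3 to 89036 for KRT8. Of the leukocyte markers, PTPRC, CD3E, LAPTM5 and TYROBP were not listed in the table, while CD14 (4.81) and CD74 (1.14), both on chromosome 5, were called higher at implied counts of 43.3 and 51.2.

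The gained chromosome stood apart from all others. The 637 genes placed on chromosome 5 had a median of 0.80, with quartiles of 0.15 and 1.33, where 4 copies against 2 give 1. Of these genes 353 (55.4%) were called higher and 22 (3.45%) lower. The medians of the other chromosomes lay between -0.063 (chromosome 6) and 0.067 (chromosome 21), with chromosome 17 as the exception at -0.12. Off chromosome 5 the median over 13250 genes was -0.017, and 18.8% of them were called, 1147 higher and 1343 lower. In bulk RNA, fewer cells with an mRNA and less of it per cell cannot be told apart.

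**Figure D1:**
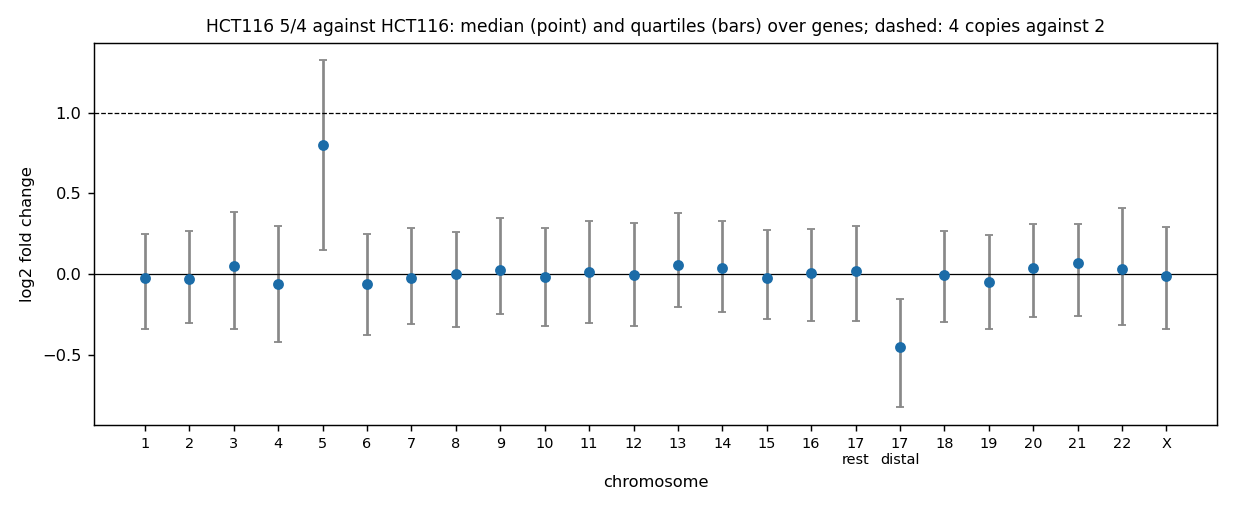
Median log2 fold change (points) with quartiles (bars) of the genes of each chromosome in HCT116 5/4 against HCT116, with chromosome 17 split at 50 Mb. Chromosome 5 sits at 0.80 and the distal part of chromosome 17 at -0.45, while the other sets lie between -0.063 and 0.067.

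The rise along chromosome 5 was not uniform but came in blocks. A running median over 9 neighbouring genes with a mean of at least 100 stayed below 0.3 for at least 5 successive genes in 10 stretches, which together hold 163 of the 637 genes. These stretches were marked after the values had been seen, so their low values in HCT116 5/4 are a description, and their edges are uncertain by a few genes. The 163 genes had a median of -0.061, with 13 called higher and 14 lower. The other 474 genes had a median of 0.97, and 340 of them (71.7%) were called higher and 8 lower.

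The longest stretch ran from ERCC8 to UTP15 (GRCh37, chromosome 5, 60162281 to 72879205) and held 50 genes with a median of -0.12, of which 4 were called higher and 6 lower. It ended sharply. UTP15, a ribosome biogenesis factor, had a value of -0.26 (SE 0.28), whereas the next gene RGNEF, a guanine nucleotide exchange factor, had one of 0.98 (SE 0.23). Within it lie the mitotic cyclin CCNB1 (-0.13, SE 0.30), the kinase CDK7 (-0.022, SE 0.24), the transcription factor subunit TAF9 (-0.39, SE 0.28) and BTF3 (-0.44, SE 0.19), which associates with nascent chains at the ribosome. GTF2H2 (-0.27, SE 0.25) and NAIP (-0.11, SE 0.31) also lie there, in a duplicated region where reads were assigned to 1 of several near-identical copies, so their values are uncertain.

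Further stretches spanned SDHAP3 to PAPD7 (1572337 to 6757157, 10 genes, median 0.00047), GUSBP1 to ZFR (21341942 to 32444846, 10 genes, median 0.063), ARSK to C5orf30 (94890805 to 102614361, 17 genes, median -0.094) and CAMLG to KDM3B (134074185 to 137772717, 21 genes, median -0.065). Near the end of the long arm, G3BP1 to PWWP2A (151150606 to 159546457) held 20 genes with a median of -0.085. Some were short. The 7 genes from TMCO6 to ZMAT2 (140019020 to 140086271), which include the histidyl-tRNA synthetases HARS (-0.22, SE 0.20) and HARS2 (-0.25, SE 0.20), had a median of -0.023, while NDUFA2, whose span overlaps the start of this stretch, rose by 0.83 (SE 0.22, adjusted p = 0.00102). The 6 genes from PGGT1B to AP3S1 (114539709 to 115249778) had a median of -0.22. Values were more mixed in the 8 genes from TCOF1 to C5orf62 (149737192 to 150176296, median 0.14) and the 14 from PRR7 to CLK4 (176873446 to 178057616, median 0.16).

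**Figure D2:**
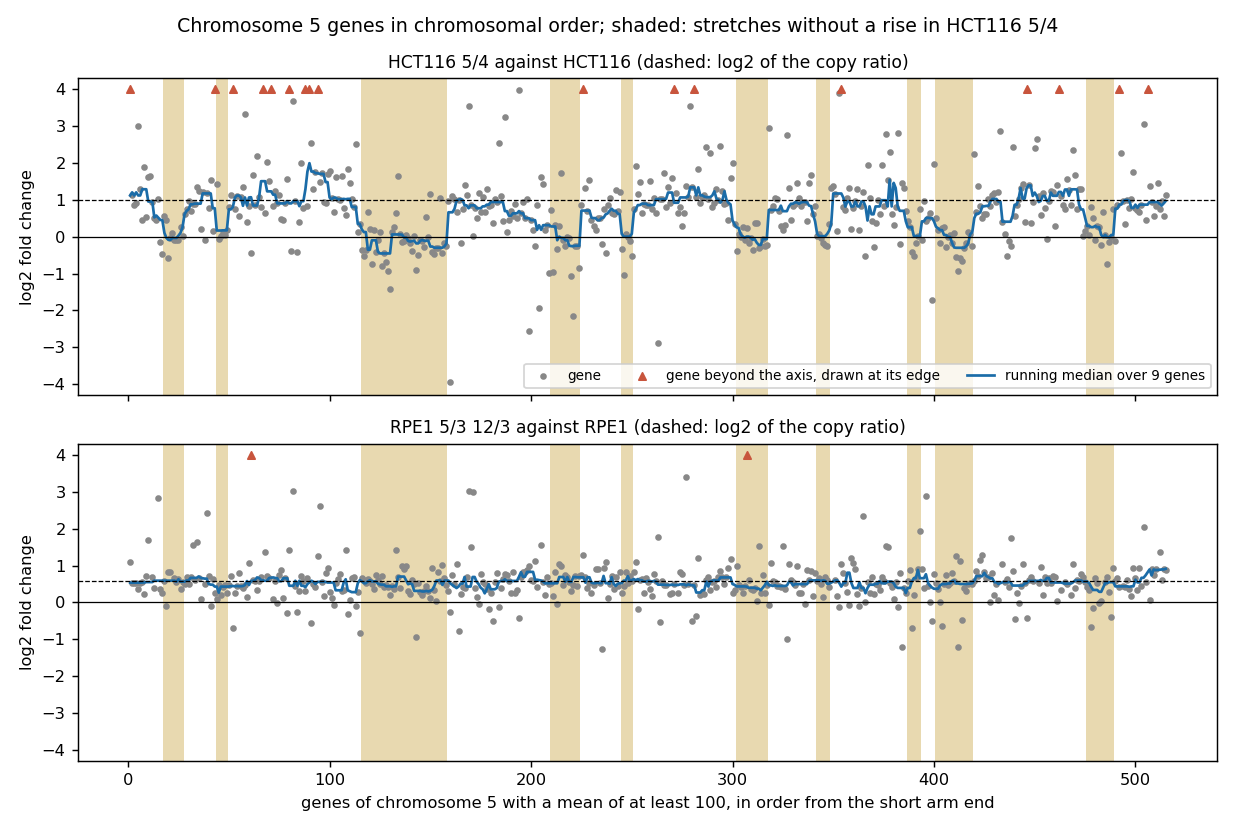
Log2 fold change of chromosome 5 genes with a mean of at least 100 (y axis) in gene order (x axis), in HCT116 5/4 above and RPE1 5/3 12/3 below, with the running median as a line and the 10 stretches shaded. In the upper panel the line lies below 0.3 in each shaded stretch and rises again between them, to 1 or above in some intervals and less in others. In the lower panel the line stays above 0 and shows no drop that follows the shading.

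The same genes behaved differently in RPE1 5/3 12/3, whose values had no part in marking the stretches. In that line, with 3 copies of chromosome 5 against 2 (0.58 on the log2 scale), the 157 measured genes of the stretches had a median of 0.50 and the 415 genes outside them one of 0.55. In RPE1 5/3 12/3, 144 of the 157 were above 0, and 33.1% of them against 38.8% of the genes outside were called higher there. The medians of the single stretches in RPE1 5/3 12/3 lay between 0.34 (PRR7 to CLK4) and 0.77 (TCOF1 to C5orf62). BTF3 had 1.01 (SE 0.16) in RPE1 5/3 12/3, a difference between the lines of -1.45 (95% interval -1.94 to -0.96). For the mitotic kinesin KIF20A the difference was -1.84 (interval -2.58 to -1.10), for the RNA-binding protein LARP1, a regulator of 5'TOP mRNAs, -1.03 (interval -1.52 to -0.54), and for CCNB1 -1.12 (interval -1.87 to -0.37). The adjusted p of these differences, from a two-sided Wald test over 12273 genes measured in both lines, were between 2.06e-07 for BTF3 and 0.0232 for CCNB1. For CDC23, a subunit of the anaphase-promoting complex, the lines differed by -0.49 with an interval from -1.05 to 0.079.

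Over the whole chromosome 197 of 572 genes (34.4%) differed between the lines, against a background of 18.5% of all genes. Of these, 126 were higher in HCT116 5/4 and 71 lower. The copy ratios of the lines differ (1 and 0.58 on the log2 scale) and the tables were normalised separately, so the differences include that of the ratios. Outside the stretches 120 genes were higher in HCT116 5/4 and 22 lower, and inside them 6 were higher and 49 lower. As the stretches were drawn from the values of HCT116 5/4, the directions in this split follow from that choice and are a description.

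**Figure D3:**
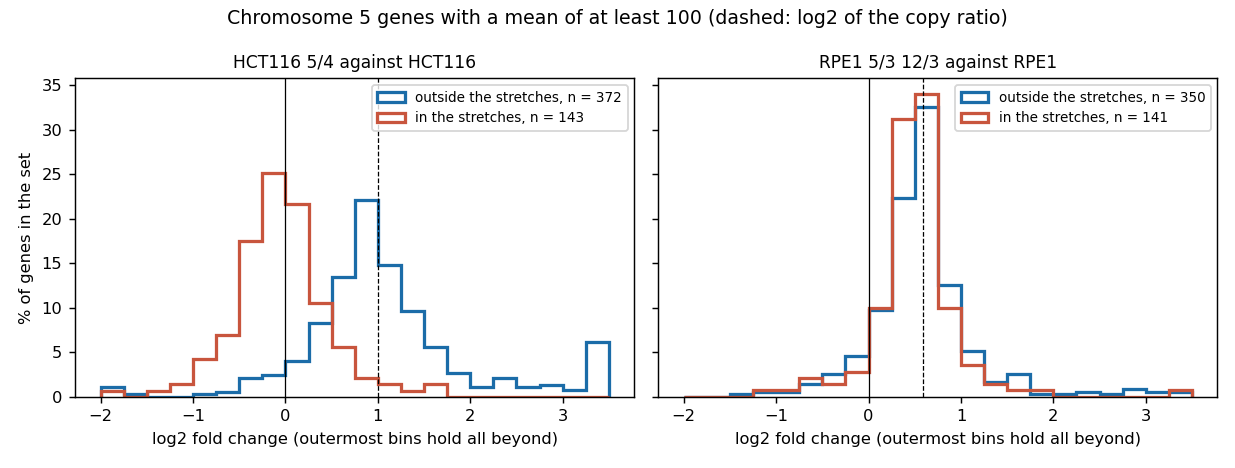
Share of chromosome 5 genes with a mean of at least 100 (y axis) by log2 fold change (x axis, outermost bins hold all beyond), for genes outside (blue) and in (red) the stretches. In HCT116 5/4 the sets peak at about 1 and about 0, and in RPE1 5/3 12/3 both peak close to the dashed line at 0.58.

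Each chromosome 5 gene was then set against both marks, no change and the copy ratio. The 95% interval held 1 and not 0 for 247 genes (38.8%), which followed the dosage within their error. Among them were chaperones and membrane proteins of high abundance. HSPA9, the mitochondrial HSP70, had 1.04 (SE 0.23), the ER chaperone CANX 1.00 (SE 0.22), the mitochondrial channel VDAC1 1.00 (SE 0.20), the adhesion protein CTNNA1 1.02 (SE 0.19) and HSPA4 0.93 (SE 0.21). APC had 0.87 (SE 0.24) and the DNA repair protein RAD50 0.93 (SE 0.22). A further 123 genes (19.3%) lay above 1 with their whole interval. For 17 genes the interval lay between both marks, and for 34 genes, with a median mean of only 29.4 counts, it held both.

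The interval held 0 and not 1, or lay below 0, for 216 genes (33.9%), which did not follow the dosage. Of these 137 lie in the stretches and 79 outside, where they make up 16.7% of the genes. With a mean in RPE1 5/3 12/3 as well, 204 of the 216 could be compared, and 71 of them were called higher there. Over all genes, 33.1% of those in the stretches and 38.8% of those outside were called higher in that line. The threshold of 0.6 lies above its copy ratio of 0.58, so a gene that follows the dosage there can miss the call. Those outside the stretches included abundant RNA-binding and nucleolar proteins. NPM1, the nucleolar histone chaperone, had 0.41 (SE 0.24), the splicing factor HNRNPH1 0.35 (SE 0.20) and the nuclear matrix protein MATR3 0.28 (SE 0.24). The cholesterol synthesis enzyme HMGCS1 (-0.41, SE 0.25) did not follow either, and in RPE1 5/3 12/3 it had -0.27 (SE 0.21). It belongs to 12 genes outside the stretches whose interval held 0 and not the copy ratio, or lay below 0, in both lines. Others of the 12, named after their values were seen, are the exchange factor TRIO, the lipid elongase ELOVL7 and the synaptic scaffold HOMER1.

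Some chromosome 5 genes fell despite the gain. ENC1, an actin-binding protein, went from an implied 2967 normalised counts in HCT116 to 193 in HCT116 5/4, a log2 fold change of -3.94 (SE 0.23, adjusted p = 6.77e-64). PAM, a peptide-amidating enzyme, fell by 2.15 on the log2 scale (SE 0.25), the transcription factor MEF2C by 2.57 (SE 0.30) and the matrix protein SPARC by 1.71 (SE 0.55). TERT, the catalytic subunit of telomerase, had an implied 61.4 normalised counts in HCT116 and 19.1 in HCT116 5/4, a change of -1.68 (SE 0.43, adjusted p = 0.000904).

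At the other end were genes nearly silent in HCT116 and abundant in HCT116 5/4. BASP1, a membrane and nuclear signalling protein, had an implied 2.93 normalised counts in HCT116 and 5327 in HCT116 5/4, a log2 fold change of 10.83 (SE 0.48, adjusted p = 9.41e-108). FYB, an adaptor protein of haematopoietic cells, had 4.59 and 5096, and PDLIM4, an actin-associated protein, 2.29 and 1307. NNT, which makes NADPH in mitochondria, went from 5.22 to 1928 (8.53, SE 0.40), against 0.32 (SE 0.15) in RPE1 5/3 12/3. The matrix protein FBN2 (7.70, SE 0.45) and the protocadherin PCDHGC3 (7.41, SE 0.38) belong to the same set, although PCDHGC3 shares exons with its neighbours in the cluster, which makes its count uncertain. Folds against levels this low are imprecise. Log2 fold changes above 3 were called for 55 chromosome 5 genes (8.63%) and for 67 genes elsewhere (0.506%), while values below -3 were called for 2 (0.314%) and 149 (1.12%).

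Genes of higher mean also exceeded the copy ratio. VCAN, a matrix proteoglycan, had an implied 2132 counts in HCT116 and 33987 in HCT116 5/4, which is 15.9-fold higher. The kinase PLK2 had 2.51 (SE 0.23), AFF4, a scaffold of the super elongation complex, 2.28 (SE 0.22), the oncostatin receptor OSMR 2.03 (SE 0.21), the ion transporter SLC12A2 1.59 (SE 0.23), and the autophagy receptor SQSTM1 1.75 (SE 0.23). In RPE1 5/3 12/3 the values of VCAN and PLK2 were -0.42 (SE 0.30) and -0.098 (SE 0.17), and that of SQSTM1 was 0.94 (SE 0.18).

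MSH3, a mismatch repair protein, lies at 79950471 to 80172634 on the plus strand. It went from an implied 89.8 to 853 normalised counts, a log2 fold change of 3.25 (SE 0.29, adjusted p = 2.36e-27), against 0.78 (SE 0.19) in RPE1 5/3 12/3. Of the 8 mismatch repair genes, MSH3 was called higher and MLH3 lower (-0.99, SE 0.26).

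Members of the gene lists that are encoded on chromosome 5 are given by their place, and since the stretches were drawn from these same values the contrast is a description. Over all gene lists, 75 members lie on chromosome 5 outside the stretches, with a median of 0.93 and 50 called higher and 1 lower, and 32 lie in the stretches, with a median of -0.12 and 3 called higher and 2 lower. In oxidative phosphorylation, 5 of the 75 measured genes were called higher and all 5 are on chromosome 5. These are UQCRQ (1.04), NDUFS4 (0.91), SDHA (0.87), NDUFA2 (0.83) and COX7C (0.64), whereas NDUFS6, which lies in a stretch, had -0.031 (SE 0.21). The 68 members off chromosome 5 and distal 17 had a median of -0.017. Of the aminoacyl-tRNA synthetases on chromosome 5, TARS (1.13, SE 0.26) and RARS (1.12, SE 0.23) rose and LARS (0.36, SE 0.23) did not pass. In the general transcription factors, TAF7 rose by 1.17 (SE 0.22), and the subunits TAF9, GTF2H2 and CDK7, all in a stretch, had values below 0, so that 1 of 30 was called higher and 0 lower (2 and 2 at an unadjusted p under 0.05 of the authors' DESeq2 test). Of all 32 synthetases 3 were higher and 2 lower.

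On chromosome 17 the genes of the distal part were lower. The boundary of 50 Mb came from earlier results of these data, so the contrast with the rest is a description. From 50 Mb to the end, 265 genes had a median of -0.45, with quartiles of -0.83 and -0.16, and 221 of them were below 0. Of these 265 genes 87 (32.8%) were called lower and 13 higher, while the 574 genes of the rest of the chromosome had a median of 0.018 with 50 lower and 47 higher. Windows of 5 Mb had medians between -0.094 and 0.13 up to 50 Mb, of -0.35 at 50 to 55 Mb and of -0.62 from 80 Mb on. The edge was not sharp. NME1, a nucleoside diphosphate kinase starting at 49230920, had -1.08 (SE 0.25) and its neighbour MBTD1 -1.29 (SE 0.23), while SPAG9 just before them had 0.30 (SE 0.20) and UTP18 just after them -0.078 (SE 0.22). Further before, EPN3 had -4.05 (SE 0.27).

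The study describes chromosome 17 of HCT116 5/4 as disomic from DNA sequencing, and those DNA data were not analysed here. As yardsticks, a ratio of 2 copies to 3 would give -0.58 and 1 copy to 2 would give -1. The 95% interval held -0.58 for 187 of the 265 genes, 0 for 114 and -1 for 109, and one interval can hold several of these. It held -0.58 and not 0 for 110 genes, held 0 and not -0.58 for 37, and lay above 0 for 21. As the region was marked off with its low values known, these counts are a description. A change of copy number was not tested. Among the largest falls were the glycosyltransferase MGAT5B (-1.79, SE 0.32), the small GTPases RAB40B (-1.68, SE 0.26) and RAC3 (-1.26, SE 0.24), the endosomal adaptor TOM1L1 (-1.48, SE 0.21) and PPM1D (-1.22, SE 0.20), a phosphatase of the p53 pathway. FASN, the fatty acid synthase, went from an implied 42981 to 19677 counts (-1.13, SE 0.27). BIRC5, or survivin, of the chromosomal passenger complex, fell by 0.90 on the log2 scale (SE 0.23, adjusted p = 0.00075). GRB2 had -0.49 (SE 0.18), TK1 -0.42 (SE 0.27) and PRKAR1A 0.0030 (SE 0.20), none of which was called. Not all genes there were lower, as SOX9 had 0.80 (SE 0.20), the integrin ITGB4 1.72 (SE 0.23) and the Wnt inhibitor NOTUM 1.63 (SE 0.30).

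HCT116* 8/3 c7 did not show this fall. The 263 distal genes measured there had a median of 0.012, with 124 below 0, and 0 were called lower and 1 higher in the authors' DESeq2 test, or 10 lower and 3 higher at an unadjusted p under 0.05. The lines differed for 92 of the 263 genes (35.0%), 76 of them lower in HCT116 5/4, against 18.9% of all 13570 genes measured in both lines and 77 of 567 genes (13.6%) on the rest of the chromosome. As the distal part was marked off with its low values in HCT116 5/4 known, this excess and its direction follow in part from that choice. For SMARCD2, a subunit of SWI/SNF remodelling complexes, the difference was -1.20 (adjusted p = 5.46e-06), for the ribosomal protein RPL38 it was -1.04 (adjusted p = 3.82e-05) and for BIRC5 -0.98 (adjusted p = 0.0039). The standard errors of HCT116* 8/3 c7 have a ceiling at 0.18, within 0.1% of which 250 genes lie, as a fit that pulls changes toward 0 leaves. RPE1 5/3 12/3 had a median of -0.012 over 240 of the distal genes.

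**Figure D4:**
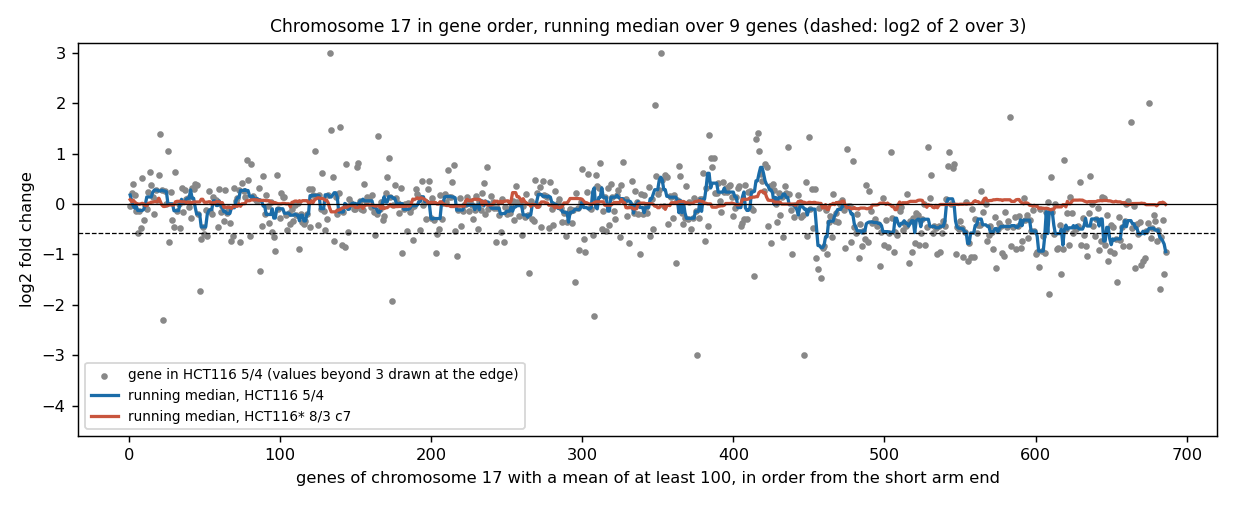
Log2 fold change of chromosome 17 genes with a mean of at least 100 (y axis) in gene order (x axis), with the running medians of HCT116 5/4 (blue) and HCT116* 8/3 c7 (red). Toward the end of the gene order the blue line lies mostly between 0 and -1, apart from a short return to 0, and the red line stays near 0. The dashed line marks -0.58, and the median of these distal genes is -0.44.

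The distal genes contributed to several gene lists. Of 35 list members there, 12 were called lower and 5 higher, beside 32.8% lower among all distal genes. The higher ones are ITGB4, NOTUM, NOG (1.49), AXIN2 (1.13) and WIPI1 (1.03). The lower ones include RPL38, the mitochondrial ribosomal proteins MRPL12 (-0.97), MRPS7 (-0.89) and MRPL38 (-0.73), the exon junction helicase EIF4A3 (-0.84), the anaphase-promoting complex subunit ANAPC11 (-0.84), the lysosomal enzyme SGSH (-1.04) and FDXR (-1.06), a mitochondrial reductase and p53 target. Without members on chromosome 5 and distal 17, the called mitochondrial ribosomal proteins dropped from 2 higher and 5 lower of 76 to 1 and 2 of 67.

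Among the lists the highest median was that of interferon-stimulated genes, which interferons induce in defence against viruses. Of 50 measured members 38 were called higher and 0 lower in the authors' DESeq2 test, against 10.8% and 9.83% of all genes, and their median was 1.34. At an unadjusted p under 0.05, 43 were higher and 0 lower. The 47 members off chromosome 5 and distal 17 had a median of 1.46, with 37 higher. OAS1, a sensor of double-stranded RNA, went from an implied 18.7 to 331 normalised counts (4.15, SE 0.39, adjusted p = 1.76e-24). The helicases IFIH1 (2.55, SE 0.27) and DDX58 (1.49, SE 0.25), which detect viral RNA, and IFIT1 (2.34, SE 0.33) and IFIT3 (2.60, SE 0.30), which bind foreign RNA, rose as well. So did the regulators IRF9 (1.70), IRF7 (1.94) and, on chromosome 5, IRF1 (1.85, SE 0.22). STAT2 had 0.51, and TRIM22 (-0.49, SE 0.41) was the lowest member.

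The promoters of these genes are shown because members of the list moved together and share an element. The core of the interferon-stimulated response element was searched on both strands as GAAA, any 2 bases and GAAA again, from 250 bases before to 50 after the start in the RefSeq table of GRCh38.p14, which held 40 of the 50 members. It was present in 24 of the 40 (60%), against 996 of all 27305 promoters of the table (3.65%). Among members called higher 19 of 31 held it, and among those not called 5 of 9. The element describes the list, and its link to the change was not tested. The 5 members of largest rise with a match are printed, at chr1:78620350-78620409 (plus strand), chr1:78649746-78649805 (plus), chr10:89327850-89327909 (plus), chr2:162318671-162318730 (minus) and chr10:89392495-89392554 (plus). The match nearest the start is in capitals and up to 25 bases are given on each side, on the strand of the gene. Matches reading TTTC first are on the opposite strand.
IFI44L: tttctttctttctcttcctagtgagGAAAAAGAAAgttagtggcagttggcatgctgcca
IFI44: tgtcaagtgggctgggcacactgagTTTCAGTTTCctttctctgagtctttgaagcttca
IFIT3: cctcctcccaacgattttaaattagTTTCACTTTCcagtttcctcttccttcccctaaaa
IFIH1: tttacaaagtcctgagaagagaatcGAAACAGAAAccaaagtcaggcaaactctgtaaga
IFIT1: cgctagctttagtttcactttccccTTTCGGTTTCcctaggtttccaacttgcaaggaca

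MHC class I presentation, which shows peptides of the cell to T cells, followed in part. Of 19 genes 8 were called higher and 0 lower (12 and 0 at an unadjusted p under 0.05 of the authors' DESeq2 test), with a median of 0.64, and off chromosome 5 there were 5 higher of 15. The immunoproteasome subunit PSMB9 (1.59, SE 0.35), the peptide transporter TAP1 (0.90, SE 0.25), the light chain B2M (0.64, SE 0.23) and the trimming peptidases ERAP1 (1.73, SE 0.23) and ERAP2 (1.30, SE 0.33) rose. Both peptidases lie within the stretch from ARSK to C5orf30, in which LNPEP, a related peptidase, had -0.094 (SE 0.25). The heavy chains HLA-B and HLA-C, whose reads are hard to separate, had 0.58 and 0.63 and were not called.

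Genes of the NRF2 and glutathione list, which detoxify oxidants and supply reducing power, were higher for 13 of 37 and lower for 0 (15 and 0 at an unadjusted p under 0.05 of the authors' DESeq2 test), with a median of 0.33. The aldo-keto reductases AKR1C1 (from an implied 10.2 to 838 counts; 6.35, SE 0.34), AKR1C2 (4.61, SE 0.36) and AKR1C3 (3.30, SE 0.31) are near-identical in sequence, so the split between them is uncertain. The cystine transporter SLC7A11 (2.68, SE 0.55), the quinone reductase NQO1 (2.25, SE 0.29), the thioredoxin reductase TXNRD1 (1.16, SE 0.25), the glutathione synthesis subunit GCLM (1.05, SE 0.33) and HMOX1 (1.08, SE 0.24) rose. The transcription factor itself, NFE2L2, had -0.11 and its inhibitor KEAP1 0.019.

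For a few genes of both lists the change in RPE1 5/3 12/3, which shares no library with this comparison, was of similar size. AKR1C1 had 5.77 (SE 0.38) in RPE1 5/3 12/3, with a difference between the lines of 0.59 (95% interval -0.42 to 1.59), AKR1C2 had 4.66 (difference -0.057, interval -0.996 to 0.882) and OAS1 3.80 (difference 0.35, interval -0.72 to 1.41). None of these differences passed. Over all interferon-stimulated genes RPE1 5/3 12/3 had 17 of 45 higher and 1 lower with a median of 0.57. Counts of calls in that line have no share over all genes beside them and are a description. The difference itself was past the threshold for 19 of them, 15 higher in HCT116 5/4 and 4 lower. The NRF2 and glutathione list had 9 of 37 higher and 0 lower there, or 18 and 2 at an unadjusted p under 0.05 of the authors' DESeq2 test. HCT116* 8/3 c7 did not show either rise. In that line 0 of 46 interferon-stimulated genes were called, with 1 higher and 4 lower at an unadjusted p under 0.05 of the authors' DESeq2 test and a median of -0.029. The difference passed for 34 of them, all higher in HCT116 5/4, against 18.9% of all genes. Of the NRF2 and glutathione genes 1 of 35 was higher in HCT116* 8/3 c7, and 10 were higher and 1 lower in HCT116 5/4 by the test of the difference. The standard errors of HCT116* 8/3 c7 have a ceiling, as given above, of the kind that a fit pulling changes toward 0 leaves. Its changes may therefore be understated and these differences overstated.

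**Figure D5:**
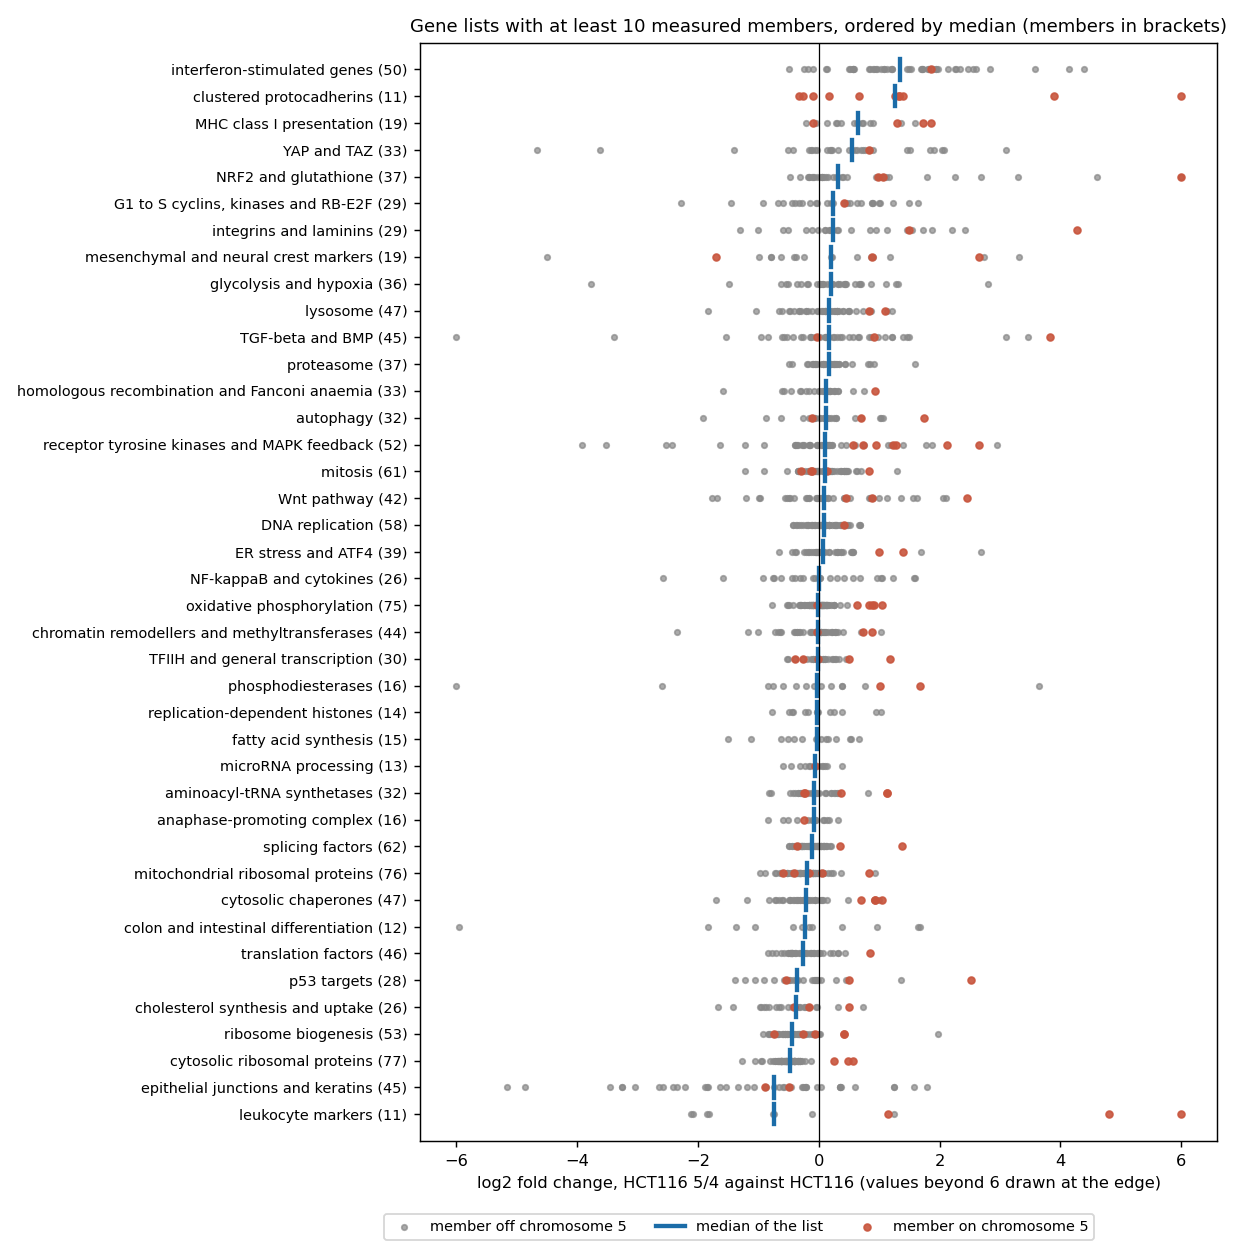
Log2 fold change (x axis) of every measured member of each gene list with at least 10 members (rows, ordered by median), with members on chromosome 5 in red and the list median as a blue bar. Interferon-stimulated genes lie highest with a median of 1.34, cytosolic ribosomal proteins form a tight group at -0.48 with their 3 chromosome 5 members to the right of 0, and the epithelial list spreads to -5.16. Values beyond 6 are drawn at the edge.

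Cytosolic ribosomal protein mRNAs were lower as a group. Of 77 members 74 were below 0, 21 were called lower and 0 higher, and the median was -0.48. At an unadjusted p under 0.05 of the authors' DESeq2 test the counts were 58 lower and 2 higher. The falls were led by RPL12 (from an implied 22218 to 9205 counts; -1.27, SE 0.19, adjusted p = 1.36e-09), RPL38 (-1.05, SE 0.19) and RPL13A (-0.95, SE 0.22). The 3 members above 0 were the 3 encoded on chromosome 5, RPS23 (0.57, SE 0.18), RPL37 (0.49, SE 0.20) and RPS14 (0.26, SE 0.23), none of which was called. In RPE1 5/3 12/3 the list had a median of 0.32 with 10 called higher and 0 lower, without a share over all genes of that line beside it. The difference between the lines passed for 51 of 77 genes, all lower in HCT116 5/4, against 18.5% of all genes. In HCT116* 8/3 c7 the median was -0.12 and 0 of 77 were called (2 higher and 11 lower at an unadjusted p under 0.05 of the authors' DESeq2 test). There, where the ceiling of the standard errors applies too, the difference passed for 10 genes lower and 1 higher in HCT116 5/4, against 18.9% of all genes. Near-identical pseudogenes of these genes can take part of their reads.

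Ribosome biogenesis factors were lower in parallel, with 14 of 53 called lower, 1 higher and a median of -0.44. GNL3 (-0.92, SE 0.24), the rRNA methyltransferase FBL (-0.71, SE 0.22) and the snoRNP protein NOP56 (-0.61, SE 0.19) fell, and UTP20 rose by 1.97 (SE 0.25). The 5 members on chromosome 5 had a median of -0.066, and 0 of them were called higher. NPM1 and TCOF1 had 0.41 and 0.42, NOP16 -0.066 and UTP15 -0.26, while NHP2 was called lower at -0.74 (SE 0.21). MYC, a transcription factor known to drive ribosome biogenesis, fell from an implied 6234 to 1285 counts (-2.28, SE 0.23, adjusted p = 4.17e-22). Translation factors had a median of -0.26, with 4 of 46 lower and 1 higher, the latter being the release factor ETF1 on chromosome 5 (0.85, SE 0.23). Mitochondrial ribosomal proteins had a median of -0.20.

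Epithelial genes were lower more often than higher. Of the 45 measured junction and keratin genes 24 were called lower and 4 higher, with a median of -0.74. Transcription factors that maintain epithelia were among them. GRHL2 went from an implied 1263 to 35.3 counts (-5.16, SE 0.31), ELF3 from 1998 to 68.4 (-4.87, SE 0.29) and OVOL1 from 256 to 71.8 (-1.83). The adhesion proteins EPCAM (from 7178 to 1206 counts; -2.57, SE 0.25) and CDH1 (from 2816 to 555; -2.34, SE 0.25), the splicing regulator ESRP1 (-1.53, SE 0.22), the claudin CLDN7 (-1.34, SE 0.24) and the serine protease PRSS8 (-3.46, SE 0.27) fell as well. Among simple epithelial keratins, KRT8 (1.25, SE 0.25) and KRT18 (1.57, SE 0.23) rose, while KRT19 (0.35, SE 0.24) was not called.

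Mesenchymal markers were not uniformly higher. Of 37 listed, 19 were measured, and 6 were called higher and 4 lower. The repressor ZEB1 (from 55.0 to 550 counts; 3.32, SE 0.30), the intermediate filament VIM (from 125 to 836; 2.74, SE 0.31) and the matrix protein FN1 (0.90, SE 0.31) rose. TWIST1 (-4.51, SE 0.68), SPARC and COL1A1 (-0.99, SE 0.29) fell, and CDH2 was below the minimum mean, at 5.02 normalised counts.

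Genes of cell attachment and of the YAP and TAZ pathway, which responds to cell shape, were higher more often than lower. YAP and TAZ genes had a median of 0.56, with 14 of 33 higher and 3 lower. The targets CTGF (1.91, SE 0.65), ANKRD1 (2.07, SE 0.73) and CRIM1 (2.04, SE 0.22) and the coactivator WWTR1 (1.85), which encodes TAZ, rose, and the junctional inhibitor AMOT fell by 3.62 on the log2 scale (SE 0.26). The listed members IGFBP3 (-4.66, SE 0.46) and FJX1 (-1.41, SE 0.24) fell as well. YAP1 had -0.17, and CYR61, another target, 0.61 (SE 0.60). Integrins and laminins were higher for 11 of 29 and lower for 2, with ITGA1 (4.27, SE 0.31) and ITGA2 (1.49, SE 0.25), both collagen receptor subunits on chromosome 5, and ITGA3 (1.12, SE 0.20) among them.

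Growth factor signalling genes moved in both directions. Of 52 receptor tyrosine kinase and MAPK genes 12 were higher and 7 lower, and off chromosome 5 and distal 17 the counts were 7 and 7 of 45. The EGFR ligands AREG (from 2997 to 198 counts; -3.92, SE 0.24) and EREG (-2.53, SE 0.57) and the receptor MET (from 9651 to 837; -3.53, SE 0.25) fell, and so did the ERK phosphatase DUSP6 (-1.22, SE 0.21). The feedback inhibitors SPRY2 (2.95, SE 0.21) and, on chromosome 5, SPRY4 (1.23, SE 0.20) rose. In TGF-beta and BMP signalling 11 of 45 were higher and 5 lower, with TGFB2 (3.11, SE 0.38) and BMP7 (-6.02, SE 0.41) among the largest off chromosome 5. The Wnt list had 11 of 42 higher and 3 lower, or 7 and 3 of 36 off chromosome 5 and distal 17, where its median was 0.031. Its transcription factors went apart, TCF7 on chromosome 5 at 2.45 (SE 0.20) and TCF7L2 at -1.77. CTNNB1, or beta-catenin, had -0.025 (SE 0.18). In NF-kappaB and cytokines 5 of 26 were higher and 5 lower (19.2% each). Among all genes 10.8% were higher and 9.83% lower.

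Most genes of cell division and DNA repair were not called, as holds for all genes, of which 10.8% were higher and 9.83% lower. Of 58 DNA replication genes 3 were higher and 0 lower in the authors' DESeq2 test, with a median of 0.085, and at an unadjusted p under 0.05 the counts were 5 higher and 1 lower. CDC6, a helicase loader, had the highest value at 0.69. Of 61 mitotic genes 3 were higher and 2 lower, among them the condensin subunit SMC2 (1.29), PTTG1 on chromosome 5 (0.84, SE 0.30), the kinesin KIF18A (-1.22) and BIRC5. Homologous recombination and Fanconi genes had 2 of 33 higher and 1 lower, the resection factor RBBP8 (-1.58). The G1 to S list moved more, with 9 of 29 higher and 4 lower. CDK6 (1.23, SE 0.25) and the CDK inhibitors CDKN2B (1.49, SE 0.26) and CDKN2C (1.63, SE 0.29) rose, and TFDP2, a partner of E2F, fell by 1.46 (SE 0.24). The CDK inhibitor CDKN1A had -0.26 (SE 0.22), and of 28 p53 targets 5 were lower and 2 higher, with PLK2 and GDF15 (1.36, SE 0.23) as the higher ones. Off chromosome 5 and distal 17 the p53 targets had 3 of 23 lower and 1 higher.

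The lists of protein homeostasis are set beside 10.8% higher and 9.83% lower among all genes. Near the former share were proteasome (10.8% higher), chaperone (12.8%) and ER stress genes (10.3%). The 37 proteasome genes had a median of 0.17, with 4 higher and 0 lower (5 and 1 at an unadjusted p under 0.05 of the authors' DESeq2 test), of which PSMB9 and PSME2 (0.92) belong to the interferon-inducible forms. Of 47 cytosolic chaperones 6 were higher and 6 lower with a median of -0.21, and 4 of the 6 risers, HSPA9, HSPA4, PFDN1 (0.93) and CCT5 (0.70), lie on chromosome 5. HSP90 cochaperones CHORDC1 (-1.69) and FKBP5 (-1.18) fell. Autophagy genes had 7 of 32 higher and 3 lower, led by SQSTM1, or 4 and 3 of 27 off chromosome 5 and distal 17. Lysosomal genes had 7 of 47 higher and 3 lower, with ARSB (0.83, SE 0.25) on chromosome 5. Among 39 genes of ER stress and ATF4, 4 were higher and 1 lower, or 2 and 1 of 37 off chromosome 5 and distal 17.

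Cholesterol synthesis and uptake genes were lower, with 9 of 26 called lower, 1 higher and a median of -0.38. The mevalonate kinase MVK fell by 1.42 on the log2 scale (SE 0.25) and the squalene epoxidase SQLE by 0.97 (SE 0.20). SREBF1, a transcription factor of lipid synthesis, rose by 0.74 (SE 0.25). In fatty acid synthesis 3 of 15 were lower, FASN, ELOVL6 (-1.51, SE 0.20) and ACACA (-0.63), and 1 higher. Glycolysis and hypoxia genes had 7 of 36 higher (19.4%) and 3 lower (8.33%), beside 10.8% and 9.83% of all genes. The glucose transporter SLC2A3 (2.80) and HIF1A (1.28) were among the higher ones.

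Chromatin regulators were mixed, with 4 of 44 higher and 7 lower, or 2 and 6 of 40 off chromosome 5 and distal 17. Their shares of 9.09% and 15.9% stand beside 10.8% higher and 9.83% lower among all genes. The SWI/SNF ATPase SMARCA4 fell from an implied 3513 to 688 counts (-2.35, SE 0.22, adjusted p = 1.98e-24), while its paralog SMARCA2 rose by 1.02 (SE 0.23), and SMARCD2 on distal 17 fell by 1.17 (SE 0.20). NSD1 (0.88, SE 0.18) and HDAC3 (0.72), both on chromosome 5, rose. Of 62 splicing factors 1 was higher, SLU7 on chromosome 5 (1.38), and 0 were lower (1 and 4 at an unadjusted p under 0.05 of the authors' DESeq2 test). Of the 13 microRNA processing genes 0 were called in that test, or 0 higher and 2 lower at an unadjusted p under 0.05, and DROSHA, which lies in a chromosome 5 stretch, had -0.055 (SE 0.19).

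Among smaller lists, 5 of 11 measured clustered protocadherins, all on chromosome 5, were higher, with PCDHGB7 (3.89) after PCDHGC3. Of all chromosome 5 genes 55.4% were higher. For the other lists the background is 10.8% higher and 9.83% lower among all genes. Of 16 phosphodiesterases 4 were higher, including PDE4D (1.67) and PDE8B (1.02) on chromosome 5, and 3 lower. The 14 measured histone genes had 2 higher and the 5 cancer-testis genes 1 higher. Of 16 anaphase-promoting complex genes 1 was lower, ANAPC11. Intestinal differentiation genes had 3 of 12 higher and 4 lower, with the peptidase DPP4 at -5.95. Of 30 leukocyte markers 11 were measured, with 4 higher and 4 lower. The higher ones included FYB, CD14 (from an implied 1.55 to 43.3 counts) and CD74, all on chromosome 5, and the lower ones LCP1 (-2.11) and CD8A (-2.08).

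Single genes off chromosome 5 changed by more than any list. The protocadherin PCDH7 went from an implied 4611 to 6.07 normalised counts (-9.57, SE 0.38) and the phosphodiesterase PDE4B from 5315 to 7.26 (-9.52, SE 0.35). The nuclear receptor cofactor NRIP1 (-8.79), the stem cell marker PROM1 (-7.93), the inflammatory caspase CASP4 (-7.61) and the vitamin D hydroxylase CYP24A1 (from 4704 to 29.9; -7.30, SE 0.30) fell similarly far. In the other direction, the cancer-testis gene MAGEB1 had 7.70 (SE 0.51), the hyaluronan synthase HAS2 7.26 (SE 0.41), and the kinase DCLK1 5.86 (SE 0.35).

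Among windows of 10 Mb with at least 15 genes outside chromosomes 5 and 17, the lowest median was that of chromosome 7 from 110 Mb, at -0.77 over 17 genes. It holds MET and the caveolae proteins CAV1 (-2.42, SE 0.26) and CAV2 (-1.74, SE 0.24), named after their values were seen, while TMEM168 in the same window had 0.099 (SE 0.26). The window of chromosome 2 from 160 Mb had a median of -0.62 over 24 genes, yet IFIH1 rose there.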

How the data were processed

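RNA of 3 libraries of HCT116 5/4 and 3 of HCT116 was sequenced by the authors (TruSeq, single reads), trimmed with cutadapt, mapped to hg19 with TopHat2 2.0.10 keeping 1 location per read, counted on RefSeq exons with featureCounts 1.4.3 and compared with DESeq2. No strand setting is given in the sources used here, so antisense partners cannot be separated. The deposited signal is the mean of counts divided by size factors over both lines, and next to it stand the log2 fold change, the standard error of that change, the Wald score and the p-value with its Benjamini-Hochberg adjustment over all genes. These are the authors' own comparison columns, used because the tables analysed hold no values of single libraries. Depth per library is unknown, and the standard error gives the precision. The count model planned for values of single libraries was therefore not run.

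A mean of 10 or more was required, and genes were placed by symbol in GENCODE 44 on GRCh37 (98.0%, including 1545 by an older symbol). Intervals are 1.96 SE each side. Implied line means assume that the mean weights both lines equally. Differences between lines were tested with a two-sided Wald test on the difference of log2 fold changes and Benjamini-Hochberg adjustment, checked on simulated data (Python 3.11.15, scipy 1.17.1). The members and the 42 gene lists were chosen with earlier results of these data known. Named genes are the 10 largest called changes with a mean of at least 100 on and off chromosome 5 and on distal 17, the 10 of highest mean that ignore or exceed the dosage, up to 3 called members of each list in each direction and its chromosome 5 members, and a fixed set of names. All other genes named were chosen after their values were seen. Alternatives were the filter on low means, the fold threshold, the adjustment, centring, boundaries and interval width. Some genes are not reported here.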

Additional observations from a re-analysis of the deposited data

Results flagged for a closer look

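Both differences between lines were marked for a closer look because the test of the difference itself was passed. On chromosome 5, 197 genes differed between HCT116 5/4 and RPE1 5/3 12/3, and on distal chromosome 17, 92 genes differed between HCT116 5/4 and HCT116* 8/3 c7. The distal part was marked off with earlier results of these data known, so its count is a description. The cell type, the number of added copies and the normalisation differ between the chromosome 5 lines and cannot be told apart.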

How the results depend on the processing

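The median of chromosome 5 stayed between 0.76 and 0.97 and that of distal chromosome 17 between -0.47 and -0.38 under every alternative run, the highest of the former (0.97) being the median outside the stretches, an alternative chosen after seeing the data. The genes called were 2865, between 2225 and 3032 under the other filters, adjustment and centring and without a fold threshold, and 1644 with an absolute log2 fold change above 1, since fewer genes pass the higher threshold. The genes that follow dosage were 218 to 249 and those that ignore it 190 to 216. The genes that differ between lines were 159 to 197 on chromosome 5 and 80 to 92 on distal chromosome 17. Of 311 named genes, 65 lost their call with the threshold at 1, 1 (PDE7A) with centring, and 2 gained one without a fold threshold. No direction of a called gene reversed, which these alternatives could not have brought about, as no fold change was refitted. Leaving out members on chromosome 5 and distal 17 moved 22 of 82 list counts by over 1.5 times, among them oxidative phosphorylation, where 0 remained higher. No paired analysis was possible because the tables hold no values of single libraries. For the same reason no library was left out and no other count model was run, and precision rests on the standard errors of 3 libraries against 3.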
